A study of Mus musculus with 24 samples.

Results

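The 9 genes described here encode secreted cytokines of the innate immune response. They are Il1a, Il1b, Il1rn, Tnf, Il6, Il10, Il12b, Il18 and Csf1, and they were chosen by name, with earlier results of these data known. All 9 were found among the 23871 genes of the PAPERCLIP tables by symbol and among the 47069 identifiers of the RNA-seq tables by Ensembl ID.

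The study profiled mRNA of mouse brain cell types with cTag-PAPERCLIP, in which Cre turns on a poly(A)-binding protein fused to GFP in chosen cells and the mRNA it holds is pulled down from whole tissue with anti-GFP antibodies. The main groups came from brains of Cx3cr1-Cre; Ctag-PABP mice, with 2 libraries from mice without injection, 3 after PBS and 3 after bacterial lipopolysaccharide (LPS). All 8 carried both the Cre and the tag, and for these mice the sources used here give no dose, injection days, age or sex. The second assay was RNA-seq of microglia isolated with CD11b beads from adult wild-type C57BL/6 mice, 3 libraries after PBS and 3 after LPS at 1 mg/kg, injected into the abdomen on each of 4 days. Here 2 brains went into each tube and were digested before selection, so a library pools brains and can hold any cell type that carries CD11b. Cortex of Gfap-Cre, Gad2-Cre and Camk2a-Cre mice carrying the same tag gave 2 PAPERCLIP libraries each, which mark mainly astrocytes, inhibitory neurons and excitatory neurons. Outside the comparisons, 1 PAPERCLIP library came from liver of a mouse labelled CL57/B6J, and 3 RNA-seq libraries came from brain cortex of Ptbp2-KO mice at E18.5. Cx3cr1 is active in microglia and in other myeloid cells, so the Cx3cr1-Cre tag is not limited to microglia.

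Interleukin 1 alpha and interleukin 1 beta act on the same receptor, and Il1rn encodes the antagonist that blocks it. Tumour necrosis factor (Tnf), interleukin 6 and interleukin 12 (of which Il12b encodes a subunit) are classical products of macrophages exposed to LPS, and interleukin 10 restrains that response. Il18 belongs to the interleukin 1 family and, like Il1b, is made as a precursor that caspase-1 cuts. Csf1 is a growth factor on whose receptor microglia depend for survival. LPS is sensed by Toll-like receptor 4, and the transcription factors NF-kappa-B and AP-1 carry much of the signal to cytokine genes.

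The promoters of Il1b, Tnf and Il6 are shown because Il1b and Il6 moved in opposite directions in isolated microglia and Tnf varied most between LPS libraries of PAPERCLIP. Each run covers 250 bases before the start and 50 after it, from RefSeq (GRCm38.p6), and capitals mark matches to the 4 motifs searched on both strands. The Il1b window is chr2:129371090-129371389 (minus strand), the Tnf window is chr17:35201958-35202257 (minus strand) and the Il6 window is chr5:30012864-30013163 (plus strand).
Il1b: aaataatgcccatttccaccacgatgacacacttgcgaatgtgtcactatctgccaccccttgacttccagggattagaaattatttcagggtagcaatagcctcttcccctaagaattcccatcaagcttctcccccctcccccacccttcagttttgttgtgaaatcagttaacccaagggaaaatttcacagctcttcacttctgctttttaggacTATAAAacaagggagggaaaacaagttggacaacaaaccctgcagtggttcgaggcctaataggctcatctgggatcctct
Tnf: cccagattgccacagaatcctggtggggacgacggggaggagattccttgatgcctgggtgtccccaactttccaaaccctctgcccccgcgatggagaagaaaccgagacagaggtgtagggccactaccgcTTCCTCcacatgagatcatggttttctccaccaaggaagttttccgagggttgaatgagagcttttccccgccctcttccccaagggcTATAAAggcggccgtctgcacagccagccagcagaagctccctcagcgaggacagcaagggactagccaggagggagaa
Il6: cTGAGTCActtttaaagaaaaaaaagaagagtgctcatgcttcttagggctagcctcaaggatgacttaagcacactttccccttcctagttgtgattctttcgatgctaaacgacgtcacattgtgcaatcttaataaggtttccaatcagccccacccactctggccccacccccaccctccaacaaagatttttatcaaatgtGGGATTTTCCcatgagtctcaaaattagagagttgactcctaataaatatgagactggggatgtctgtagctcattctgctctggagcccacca
The motifs were GGG and TTCC with any 3 bases between them for NF-kappa-B, TGANTCA for AP-1, TATAAA for the TATA box and GAGGAA for the myeloid factor PU.1. The capitals in the Il1b window mark TATAAA beginning 31 bases before the start. Tnf has TATAAA beginning 29 bases before the start and GAGGAA on the opposite strand, where the run reads TTCCTC. Il6 has the NF-kappa-B letters GGGATTTTCC beginning 44 bases before the start and the AP-1 letters TGAGTCA beginning 249 bases before it. Of the 9 genes, 8 had a promoter in the table. The NF-kappa-B letters were found in 3 of the 8 (Csf1, Il1rn and Il6) against 5.56% of 32851 promoters, and TATAAA in 5 of the 8 (Il1a, Il1b, Il1rn, Il18 and Tnf) against 13.6%. AP-1 letters were found in 3 of the 8 (Il1a, Il1rn and Il6) against 7.81% of promoters, and GAGGAA in 3 of the 8 (Il12b, Il1a and Tnf) against 28.3%. Il1rn has more than 1 annotated start, and its matches are spread over them. The 8 genes had 10 windows, and a gene was counted if any window matched, whereas the shares are per promoter. The TATAAA of Il18 and of Il1rn lay on the opposite strand, 175 bases before the start in Il18 and after it in Il1rn. A match describes letters in the window, not binding.

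Depth was low for genes of this kind. Total counts were 133456 to 154959 in untreated, 266330 to 337770 in PBS and 679115 to 1041245 in LPS libraries of Cx3cr1-Cre PAPERCLIP, so the LPS libraries were the deepest. RNA-seq of microglia held 1254076 to 2019896 counts after PBS and 1250170 to 2133407 after LPS. A count of 0 over the 3 PBS PAPERCLIP libraries allows a level of up to 3.41 CPM (counts scaled to a library total of 1e+06), taking 3 counts as the limit. Summed levels of 10 microglial markers were 23863 to 33777 CPM in the Cx3cr1-Cre libraries and 24577 to 36517 CPM in isolated microglia, and every marker was detected in each of these groups. PBS replicate 3 of PAPERCLIP stood apart, with 2333 CPM of the neuronal gene Snap25 against 296 to 442 CPM in the other 7 Cx3cr1-Cre libraries, and 1294 CPM of the hepatocyte gene Alb. In RNA-seq, replicate 3 of both groups had 1.14 and 1.5998 CPM of Xist, the RNA that coats the inactive X chromosome, against 1154 to 1405 CPM in the other 4 libraries. The sources used here give no sex for them.

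LPS against PBS asks how the cytokine messages change when microglia are activated. In tagged cells of whole brain, messages of Il1b, Il1rn and Tnf were at or near the limit of detection after PBS and present in every LPS library. In isolated microglia, Il1b, Il1rn and Csf1 rose, Il6 fell, and Tnf did not pass the test. There Il1rn and Il6 passed the filter only through the group in which each was higher, so their changes are descriptions. Il1a was among the most abundant of the cytokine messages already after PBS in both assays. Il10 and Il12b were at the limit of detection in PAPERCLIP. Fewer cells of a type and less RNA per cell cannot be told apart in these bulk libraries.

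**Figure D1:**
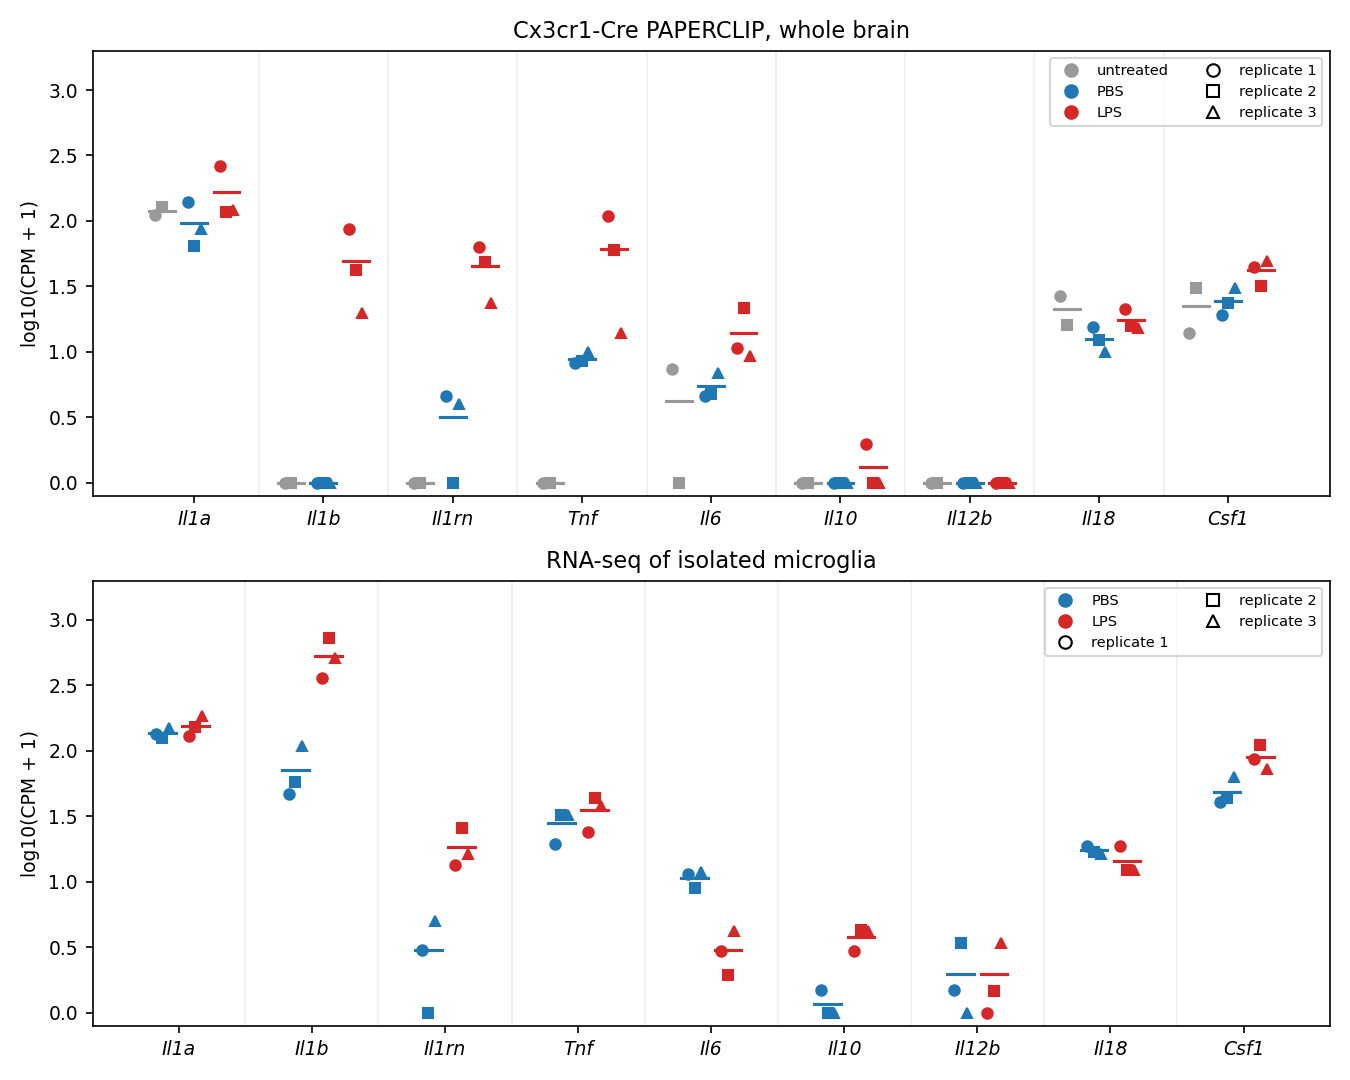
Level of each cytokine gene in each library, as log10(CPM + 1), with Cx3cr1-Cre PAPERCLIP above and RNA-seq of isolated microglia below. Points are libraries (symbol, replicate number), colours are treatments and short lines are group means; Il1b lies at 0 in all PBS PAPERCLIP libraries and above 18 CPM in all LPS libraries.

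Il1b (chr2:129364569-129371164) encodes the secreted form of interleukin 1 made by activated myeloid cells. In PAPERCLIP it had no count in the 2 untreated and 3 PBS libraries, and 89, 28 and 16 counts in LPS replicates 1, 2 and 3, which is 85.5, 41.2 and 18.9 CPM. The groups did not overlap, and 11.7% of the genes tested separated in the same way with LPS higher. This share is over genes that passed the low-count filter, which Il1b did not. The pooled LPS level of 51.8 CPM was 15.2-fold the PBS limit of 3 counts over the group. The 95% counting interval of the ratio began at 12.2, at 9.84 in replicates 1 and 2 and at 1.54 in replicate 3. Il1b fell below the low-count filter of the planned test. A lower filter would admit it only through the LPS group, so no test is given for it in PAPERCLIP. In isolated microglia Il1b had 46.0, 56.6 and 108 CPM after PBS and 361, 727 and 506 CPM after LPS. All 3 LPS libraries lay above all 3 PBS libraries, as in 22.1% of the genes tested there. The log2 difference was 3.03 (SE 0.29, adjusted p = 1.51e-05), an 8.16-fold rise, and the call held in all 14 alternatives. By replicate, the pooled ratio was 11.5 (95% counting interval 9.77 to 13.5) in replicates 1 and 2 and 4.67 (3.96 to 5.52) in replicate 3, whose PBS library was the highest of the PBS group. The difference between these ratios was not tested over samples.

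Il1rn (chr2:24336860-24351491) encodes the interleukin 1 receptor antagonist, the natural brake on both interleukin 1 cytokines. In PAPERCLIP it had 1, 0 and 1 counts in PBS libraries and 65, 32 and 19 in LPS libraries, or 0 to 3.62 CPM against 22.4 to 62.4 CPM. The groups did not overlap. Its log2 difference was 4.15 (SE 0.75, adjusted p = 0.00683, n = 3 libraries a group, edgeR), and Il1rn was the 1 cytokine called among the 3 of 9 that passed the filter. It passed only through its LPS libraries, so the call is given as a description and no test is read from it. Over all 5692 genes tested, 3.53% were called, 2.74% higher and 0.791% lower. The pooled ratio was 19.9 (5.38 to 166), and the wide interval reflects the 2 counts after PBS. Leaving out PBS replicate 1 or PBS replicate 2 ended the call, with adjusted p = 0.0528 and 0.0506, in a range of 1.55e-08 to 0.0528 over its 13 alternatives. In isolated microglia Il1rn had 4, 0 and 7 counts in PBS libraries, and LPS libraries held 19, 53 and 19. Il1rn was higher after LPS there too, by 3.11 on the log2 scale (SE 0.52, adjusted p = 0.000921). Again it passed the filter only through its LPS libraries, and the same limit holds. So the antagonist, like Il1b, was higher in every LPS library than in any PBS library in both assays. Of all genes tested, 11.7% in PAPERCLIP and 22.1% in isolated microglia separated in this way.

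Il1a (chr2:129299609-129310186) lies beside Il1b and encodes a cytokine that is active without cleavage. It had 38, 17 and 29 counts after PBS (138, 63.8 and 85.9 CPM) and 272, 79 and 102 after LPS (261, 116 and 120 CPM) in PAPERCLIP. The groups overlapped, since PBS replicate 1 lay above LPS replicates 2 and 3. The log2 difference was 0.79 (SE 0.35, adjusted p = 0.290) without the replicate block. With the replicate number as a block the difference was 0.74 and passed (adjusted p = 0.0367); over the 15 alternatives adjusted p ran from 0.0163 to 0.752. Within each replicate number the LPS library was above the PBS library. In isolated microglia Il1a was at 125 to 148 CPM after PBS and 130 to 183 CPM after LPS, with a log2 difference of 0.29 (SE 0.12, adjusted p = 0.104). With the file-name letter that separates replicate 3 as a term, its adjusted p was 0.0393, in a range of 0.0393 to 0.317.

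Tnf (chr17:35199367-35202007) encodes tumour necrosis factor, a membrane-bound cytokine released by the protease Adam17. Its PAPERCLIP counts were 2, 2 and 3 after PBS (7.25 to 8.88 CPM) and 112, 40 and 11 after LPS (108, 58.9 and 12.97 CPM). The groups did not overlap, and 11.7% of the genes tested, which do not include Tnf, separated with LPS higher. Yet the LPS libraries differed from each other by 8.30-fold, the widest spread among the cytokines detected in every LPS library. The pooled ratio was 7.98 (3.79 to 20.2). It was 11.98 (4.58 to 44.5) in replicates 1 and 2, whose deposited tables share a name prefix, and 1.46 (0.386 to 8.15) in replicate 3, which has another prefix. Tnf fell below the planned filter. With the filter at 5 counts, chosen after seeing the data, the log2 difference was 2.89 (SE 0.78) and did not pass (adjusted p = 0.0708), while with no filter it was 2.99 (adjusted p = 3.66e-08). Tnf passed the lower filter only through its LPS libraries, so these values are descriptions and no test is read from them. In isolated microglia Tnf was already present after PBS, at 18.3 to 31.4 CPM, and had 22.8 to 42.7 CPM after LPS. The groups overlapped and the difference of 0.49 (SE 0.25, adjusted p = 0.184) did not pass in any of the 14 alternatives.

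Csf1 (chr3:107741048-107760469) encodes the ligand of the receptor Csf1r. In PAPERCLIP it had 18.1, 22.5 and 29.6 CPM after PBS and 43.2, 30.9 and 48.3 CPM after LPS, so the groups did not overlap. The log2 difference was 0.77 (SE 0.35, adjusted p = 0.305) and the groups of 11.7% of the genes tested separated in the same way with LPS higher. In isolated microglia Csf1 had 39.6, 42.3 and 61.7 CPM after PBS and 85.4, 110 and 72.0 CPM after LPS. It rose by 1.02 on the log2 scale (SE 0.18, adjusted p = 0.0016), with groups that did not overlap, against 40.6% of genes tested that separated in either direction and 22.1% with LPS higher. The pooled ratio was 2.45 (2.00 to 3.01) in replicates 1 and 2 and 1.17 (0.873 to 1.56) in replicate 3, so the rise was not detectable in counts of replicate 3 alone.

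Il18 (chr9:50554700-50581841) encodes a cytokine of the interleukin 1 family that many resting cells hold as precursor. PBS libraries of PAPERCLIP held 4, 3 and 3 counts and LPS libraries 21, 10 and 12, or 8.88 to 14.5 CPM against 14.1 to 20.2 CPM, and the ranges overlapped. Il18 was below the filter and its pooled ratio of 1.47 had an interval of 0.729 to 3.29. In isolated microglia it was at 15.4 to 17.8 CPM after PBS and 11.2 to 17.6 CPM after LPS, with a log2 difference of -0.20 (95% interval -0.71 to 0.31, adjusted p = 0.619). No change in either direction could be shown for Il18.

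Il10 (chr1:131019845-131024970), the anti-inflammatory cytokine, had 1 count in LPS replicate 1 and none in the other 7 Cx3cr1-Cre PAPERCLIP libraries. In isolated microglia PBS libraries held 1, 0 and 0 counts and LPS libraries 3, 7 and 4. These groups did not overlap, and 22.1% of the genes tested there, which do not include Il10, separated with LPS higher. The pooled ratio was 14.3 (2.18 to 605), and Il10 was below the planned filter. With no filter its adjusted p was 0.0100 (edgeR). That value rests on 1 count after PBS and 14 after LPS, so it is a description and no test is read from it. Il12b (chr11:44400063-44414677) had no count in any Cx3cr1-Cre PAPERCLIP library, which after LPS allows up to 1.17 CPM over the group. In isolated microglia PBS libraries held 1, 3 and 0 counts and LPS libraries 0, 1 and 3. Its pooled ratio was 1.02 (0.190 to 5.49), so these counts set no direction.

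Il6 (chr5:30013114-30019975) encodes interleukin 6, which signals through Il6ra and Il6st. Its PAPERCLIP counts were 1, 1 and 2 after PBS (3.62, 3.75 and 5.92 CPM) and 10, 14 and 7 after LPS (9.60, 20.6 and 8.25 CPM). The LPS libraries were all above the PBS libraries, as in 11.7% of the genes tested. That share is over genes that passed the filter, so Il6, with few counts, is not among them. Yet with 4 counts in the whole PBS group the pooled ratio of 2.66 had an interval of 0.939 to 10.4. Il6 was below the filter, and with no filter its log2 difference of 1.51 (SE 0.79) had an adjusted p of 0.384. In isolated microglia the order was turned. Il6 had 21, 10 and 19 counts after PBS (10.4, 7.97 and 10.8 CPM) and 3, 2 and 4 after LPS (1.956, 0.937 and 3.20 CPM). It fell by 2.27 on the log2 scale (SE 0.44, adjusted p = 0.00244), a 4.82-fold drop that rests on 50 counts after PBS and 9 after LPS. Il6 passed the filter only through its PBS libraries, so the call is given as a description. The fall was called in all 14 alternatives, with adjusted p from 0.000119 to 0.0232, and these calls are descriptions in the same way. The pooled ratio was 0.144 (0.0437 to 0.374) in replicates 1 and 2 and 0.295 (0.0730 to 0.888) in replicate 3.

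In isolated microglia, then, 7 of the 9 genes passed the filter, of which Il1b, Il1rn and Csf1 were called higher and Il6 lower. Il1rn passed only through its LPS libraries and Il6 only through its PBS libraries. Over all 10267 genes tested, 26.4% were called, 15.9% higher and 10.4% lower, and with library totals in place of TMM scaling the split was 1282 higher and 1641 lower against 1634 and 1072. These 4 calls also held under that scaling.

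**Figure D2:**
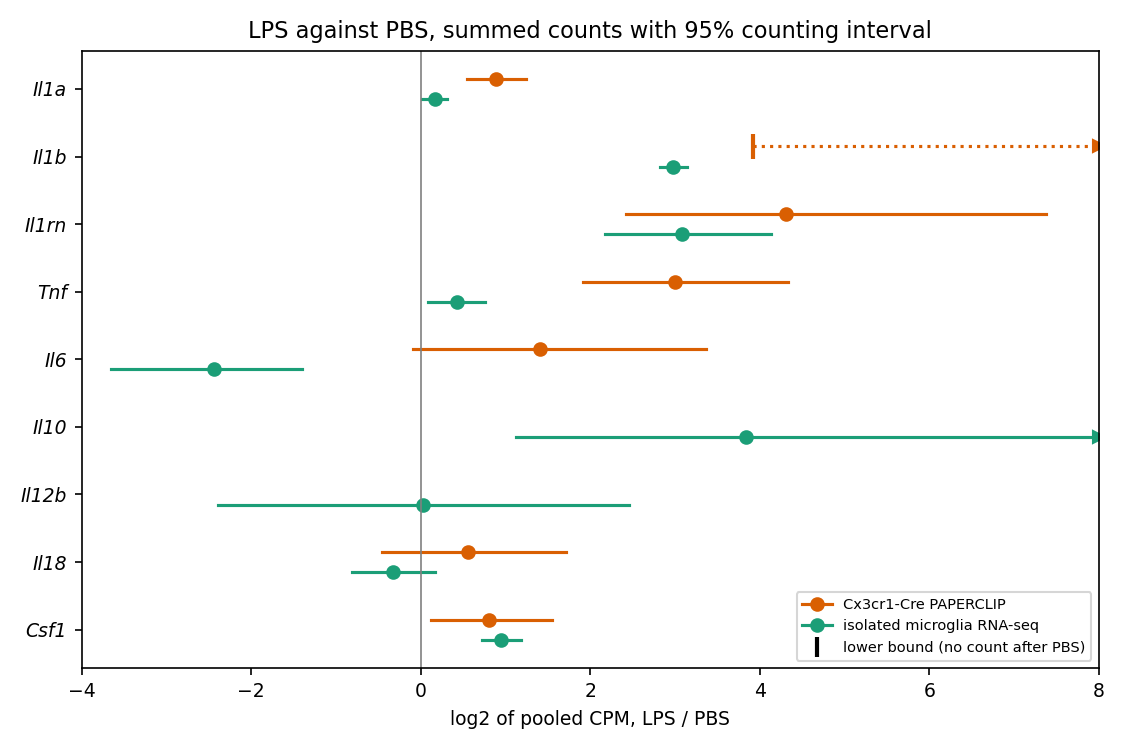
Log2 ratio of pooled CPM, LPS over PBS, for each cytokine gene in Cx3cr1-Cre PAPERCLIP and in RNA-seq of isolated microglia. Points are ratios of summed counts and lines their 95% intervals for counting error only; the bar for Il1b is a lower bound against 3 counts, and Il10 and Il12b have no PAPERCLIP ratio because both groups were at or under 3 counts. Il6 lies to the right of 0 in PAPERCLIP and to the left of 0 in RNA-seq.

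Whether the assays differed in their LPS response was tested in a fit of all 12 libraries. Of the 7 cytokines fitted, 0 were called by edgeR and 0 by DESeq2, Il6 and Tnf had an unadjusted p under 0.05, and over 10165 genes 0.00984% were called in either direction, a single gene (Apoe). For Il6 the RNA-seq response minus the PAPERCLIP response was -3.71 on the log2 scale (SE 0.84, adjusted p = 0.122). It stayed negative in all 18 alternatives, at -4.13 to -3.28, and passed only with no filter (-3.76, adjusted p = 0.0123, in a range of 0.0123 to 0.335). For Tnf the difference was -2.50 (SE 0.95, adjusted p = 0.429). It passed with no filter (adjusted p = 0.00387) and without LPS replicate 3 of PAPERCLIP (-3.11, adjusted p = 0.0342), in a range of 0.00387 to 0.650. Differences for Il1a (-0.58, adjusted p = 0.732), Il1rn (-1.21, adjusted p = 0.881), Il18 (-0.79, adjusted p = 0.721) and Csf1 (0.17, adjusted p = 0.971) did not pass either. For Il1b no fold can be given for the difference, because the PAPERCLIP PBS libraries had no count. The intervals are wide, from -1.35 to 0.19 for Il1a and from -0.65 to 0.99 for Csf1, so equal responses are not shown either.

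The ratio of Il6 to Il1b within a library needs no scaling and was compared directly. After LPS, PAPERCLIP held 11.2, 50 and 43.8 Il6 counts per 100 Il1b counts, and isolated microglia 0.542, 0.129 and 0.632. After PBS, isolated microglia held 22.6, 14.1 and 10 per 100, and in PAPERCLIP the ratio is not defined. In isolated microglia every LPS library therefore had less Il6 for each Il1b than any PBS library. There the log2 ratio with a pseudocount of 0.5 was -7.91 ± 1.19 after LPS and -2.73 ± 0.58 after PBS (SD, n = 3). The shift of -5.18 gave p = 0.1 in an exact two-sided permutation test, the smallest value that 20 splits of 3 against 3 allow. In PAPERCLIP the pseudocount and the absence of Il1b counts after PBS set the size of the shift, which was -3.57 with a pseudocount of 0.5, -2.89 with 1 and -5.54 with 0.1, and no test is read from it. Summed PAPERCLIP counts were 0 after PBS and 133 after LPS for Il1b, and 4 and 31 for Il6. In isolated microglia the shift came from 354 to 2738 counts of Il1b with 50 to 9 of Il6, so both counts moved. Levels of Il6 and Il1b within a library are not per transcript length, and only their change is compared.

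**Figure D3:**
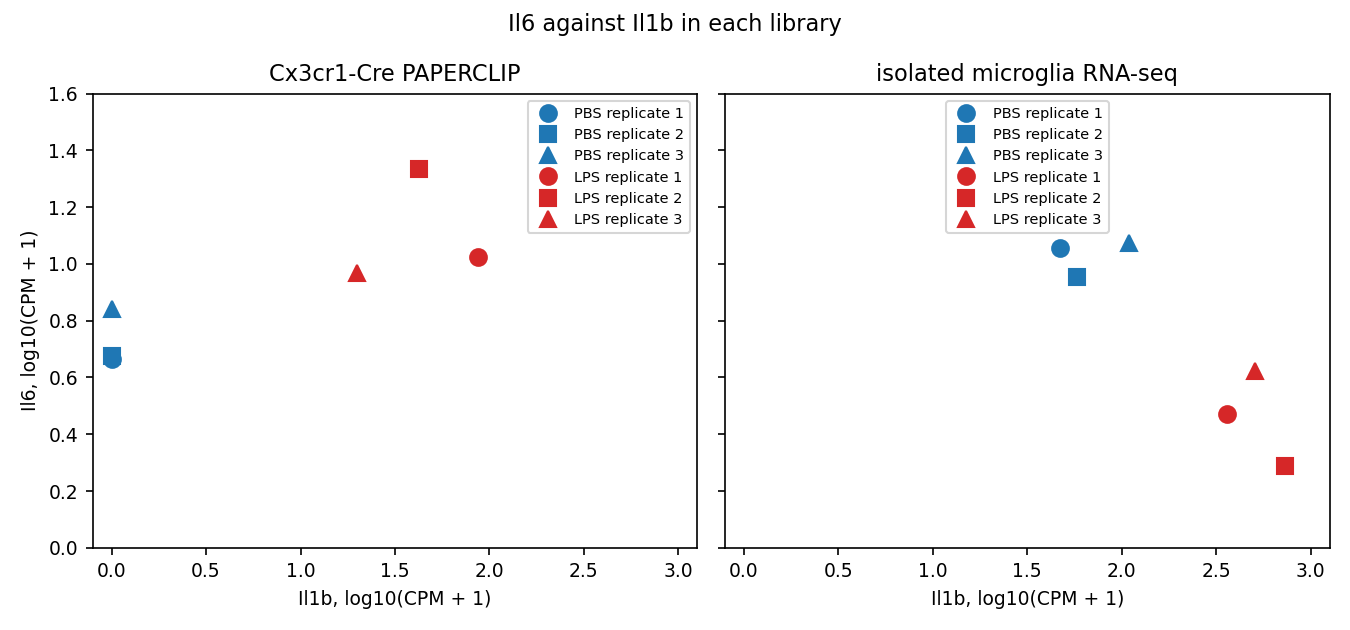
Il6 against Il1b in each PBS and LPS library, both as log10(CPM + 1), for Cx3cr1-Cre PAPERCLIP (left) and isolated microglia (right). Each point is a library; LPS libraries lie to the upper right of PBS libraries in PAPERCLIP and to the lower right in RNA-seq, where Il6 was 0.937 to 3.20 CPM after LPS.

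The assays also differed in the level before LPS. Over the PBS libraries, Il1b had 0 counts of 879994 in PAPERCLIP, which allows up to 3.41 CPM, and 354 counts or 70.4 CPM in isolated microglia. Il1a by contrast had 95.5 CPM in PAPERCLIP and 136 CPM in isolated microglia, and Il18 had 11.4 and 16.5 CPM. Tnf had 7.95 and 26.1 CPM. CPM of PAPERCLIP and of RNA-seq count different fragments and were normalised apart, so these values are set side by side without a test. The immediate early genes Fos and Jun, named after their values were seen, were also higher after PBS in isolated microglia. Fos had 0 to 2.96 CPM after PBS in PAPERCLIP and 991 to 1361 CPM in isolated microglia, and Jun had 45.1 to 97.9 and 2386 to 2967 CPM. After LPS, Jun was at 683 to 973 CPM in isolated microglia and at 44.8 to 76.8 CPM in PAPERCLIP, and Fos was at 838 to 1218 and 7.07 to 9.60 CPM. The part of these genes in the cytokine levels was not tested.

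Markers of other blood cells were summed in each library, without a test. The summed level of 10 neutrophil markers in isolated microglia was 942, 850 and 2007 CPM after PBS and 1790, 1718 and 1604 CPM after LPS, so the groups overlapped. Of the summed counts, Csf3r, at 692 to 799 CPM after PBS and 843 to 907 CPM after LPS, took the largest part. All 10 were detected in both groups, S100a8 at 27.9 to 267 CPM after PBS and 191 to 281 CPM after LPS, and Ly6g at 0.797 to 4.00 and 0.469 to 3.26 CPM. PBS replicate 3 thus held the most neutrophil marker RNA and the most Il1b of the PBS group. Without that library the Il1b difference was 3.48. In PAPERCLIP, 9 of the 10 markers were in the table and summed to 68.1 to 71.3 CPM after PBS and 85.5 to 113 CPM after LPS, with 58.1 to 187 CPM in the untreated libraries. Of these, 6 had no count after PBS, S100a8 and S100a9 among them, and after LPS S100a8 had 2 counts and S100a9 had 11.

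The 9 T and NK cell markers summed to 9.90 to 13.6 CPM after PBS and 110 to 215 CPM after LPS in isolated microglia, where the groups did not overlap. Most of that sum was Gzma (26 counts after PBS and 552 after LPS), with Gzmb (10 and 164), Nkg7 (9 and 92) and Klrb1c (8 and 62), genes of cytotoxic cells. The T cell genes stayed near 0, with 0 and 1 counts of Cd3e, 1 and 1 of Cd3d and 1 and 4 of Trac. Cd3g had 0 and 5 counts, as did Cd8a. In PAPERCLIP 8 of these markers summed to 0 to 11.8 CPM after PBS and 13.4 to 32.4 CPM after LPS, again without overlap. Most of that sum was Cd3g (1 count after PBS and 23 after LPS), Gzmb (2 and 17) and Gzma (2 and 10). Cd3e and Nkg7 were at 0 after PBS and at 2 and 1 counts after LPS. The 9 monocyte and border macrophage markers summed to 953 to 1109 CPM after PBS and 974 to 1211 CPM after LPS in PAPERCLIP, and to 650 to 946 and 625 to 711 CPM in isolated microglia, with overlap in both assays. Ccr2 and Mrc1 were detected in all of these groups, but single markers moved apart under the sums. In isolated microglia Ccr2 (33.7 to 41.7 CPM after PBS, 54.1 to 90.0 CPM after LPS), Ly6c2, Plac8 and Ms4a7 were higher without overlap. Mrc1 (367 to 500 and 240 to 366 CPM), Cd163 and Lyve1 were lower, and F13a1 and Pf4 overlapped. In PAPERCLIP Plac8 (7.51 to 14.8 and 34.2 to 96.0 CPM) and Ms4a7 were higher without overlap. Ly6c2 had 0 and 3 counts there, and the others overlapped. Of all genes tested, 40.6% separated in either direction in isolated microglia and 21.3% in PAPERCLIP. The part of these cells in the cytokine differences was not tested.

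**Figure D4:**
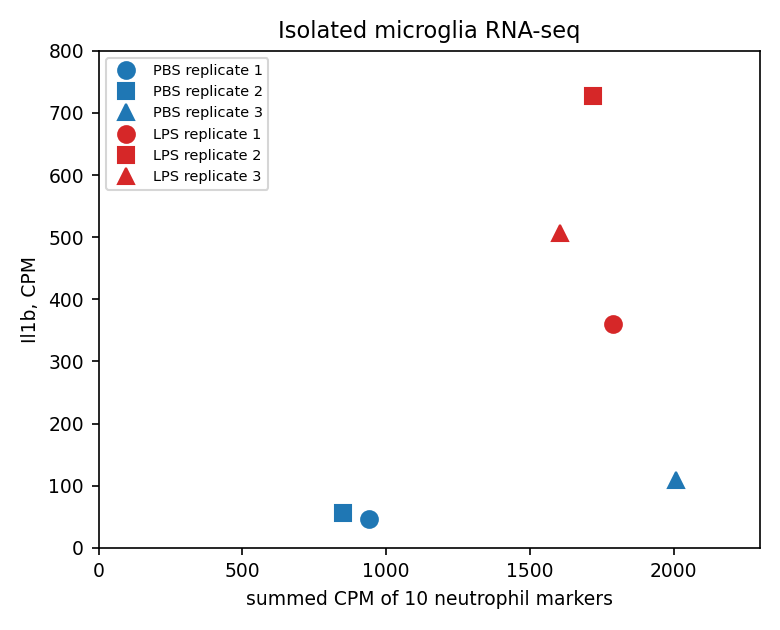
Il1b (CPM) against the summed CPM of 10 neutrophil markers in the 6 RNA-seq libraries of isolated microglia. Each point is a library; PBS replicate 3 lies farthest right at 2007 CPM of neutrophil markers with 108 CPM of Il1b, below all LPS libraries.

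Genes that respond to or control these cytokines were read from 4 lists. Of the listed regulators of feedback and mRNA decay, not all of them inhibitors, 2 of 9 tested rose in PAPERCLIP, against 2.74% of all genes tested. These were Socs3, an inhibitor of Jak-Stat signalling (2.65, SE 0.61, adjusted p = 0.0284), and Nfkbia, the inhibitor that holds NF-kappa-B in the cytoplasm (1.06, SE 0.26, adjusted p = 0.0348). The RNase Zc3h12a, which cuts Il6 mRNA, had a difference of 1.85 (adjusted p = 0.0565). The list's median was 1.06 against -0.01 over all genes. In isolated microglia 8 of 14 regulators rose and 0 fell, by edgeR and by DESeq2, with a median of 0.50 against -0.02 over all genes, of which 15.9% were called higher and 10.4% lower. They were led by Tnip1 (1.54, adjusted p = 9.62e-06) and Tnfaip3 (0.98), which restrain NF-kappa-B together, and by Irak3 (2.25), an inhibitor of Toll-like receptor signalling.

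Of the receptors, 0 of 6 tested passed in PAPERCLIP by edgeR (0 at an unadjusted p under 0.05, 0 by DESeq2), while in isolated microglia 5 of 13 rose and 2 fell, against 15.9% and 10.4% of all genes tested. Il18rap, a subunit of the interleukin 18 receptor, rose by 2.46 (SE 0.39), the decoy receptor Il1r2 by 2.49 (SE 0.64) and the Tnf receptor Tnfrsf1b by 0.38 (SE 0.08). The other two that rose were Il10rb (0.38) and the inhibitory receptor Sigirr (1.27), which DESeq2 did not call. Both subunits of the interleukin 6 receptor fell, Il6st by 0.47 and Il6ra, named after its values were seen, by 0.37 on the log2 scale. Medians were -0.02 in PAPERCLIP and 0.38 in isolated microglia. Of the genes that process cytokines, 0 of 7 passed in PAPERCLIP by edgeR or DESeq2 (median 0.24), and Pycard, the adaptor of inflammasomes, alone had an unadjusted p under 0.05 (0.79, adjusted p = 0.0521). In isolated microglia 4 of 8 rose (median 0.39), against 15.9% of all genes. Casp4, an inflammatory caspase, rose by 1.12, Rhbdf2, a partner of Adam17, by 0.78, Adam17 itself, which releases Tnf, by 0.47, and Pycard by 0.45, which DESeq2 did not call.

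Of the 24 other cytokine ligands, 2 were tested in PAPERCLIP and 0 passed in edgeR, in DESeq2 or at an unadjusted p under 0.05 (median -0.25). In isolated microglia 5 were tested (median -0.21), and Osm, of the interleukin 6 family, rose by 1.29 (SE 0.19, adjusted p = 0.000383) while Il16 fell by 0.40, a call that DESeq2 did not make. Of the 4 lists, 0 genes passed edgeR's test of the difference between assays, where 3 regulators had an unadjusted p under 0.05 and DESeq2 called Nfkbiz. Most other ligands were therefore too low to test in either assay.

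Before any injection, Il1a had the largest difference between tagged Cx3cr1-Cre cells and the cortical cell types among the 3 cytokines tested. It had 17 and 17 counts in the untreated libraries (110 and 127 CPM) and a single count in the 6 cortical libraries, in Camk2a. The log2 difference from the mean of the 3 cortical groups was 9.48 (SE 0.71, adjusted p = 9.23e-09), and the pooled ratio was 940 (158 to 38190). Il1a passed the filter only through the untreated Cx3cr1-Cre libraries, so the call is given as a description and no test is read from it. Of the 9421 genes tested, 49.8% were called, 21.8% higher, and of the 3 cytokines that passed the filter Il1a and Il18 were called higher. Levels of Il1a after LPS, after PBS and untreated overlapped, at 116 to 261, 63.8 to 138 and 110 to 127 CPM.

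Il18 and Csf1 were highest elsewhere. Il18 had 64.6 ± 3.14 CPM (SD, n = 2) in Gfap libraries and 20.4 ± 7.66 CPM in untreated Cx3cr1 libraries, without overlap. It had 3.43 ± 1.88 CPM in Gad2 and 0.499 ± 0.705 CPM in Camk2a. Against the mean of the cortical groups on the log scale, Il18 was higher in Cx3cr1 (2.09, SE 0.79, adjusted p = 0.0355), though it was 3.15-fold (1.42 to 8.70) higher in pooled Gfap counts than in Cx3cr1. This call was lost in 7 of 14 alternatives, among them the omission of either untreated library (adjusted p = 0.353 without replicate 1 and 0.0506 without replicate 2). Csf1 had 70.6 ± 13.3 CPM in Gfap, 21.2 ± 3.93 in Camk2a, 21.4 ± 12.1 in untreated Cx3cr1 and 10.6 ± 3.02 in Gad2. Gfap stood above the others without overlap, and Camk2a and untreated Cx3cr1 overlapped. Csf1 did not differ between Cx3cr1 and the cortical mean beyond its error (-0.18, SE 0.60, adjusted p = 0.826).

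**Figure D5:**
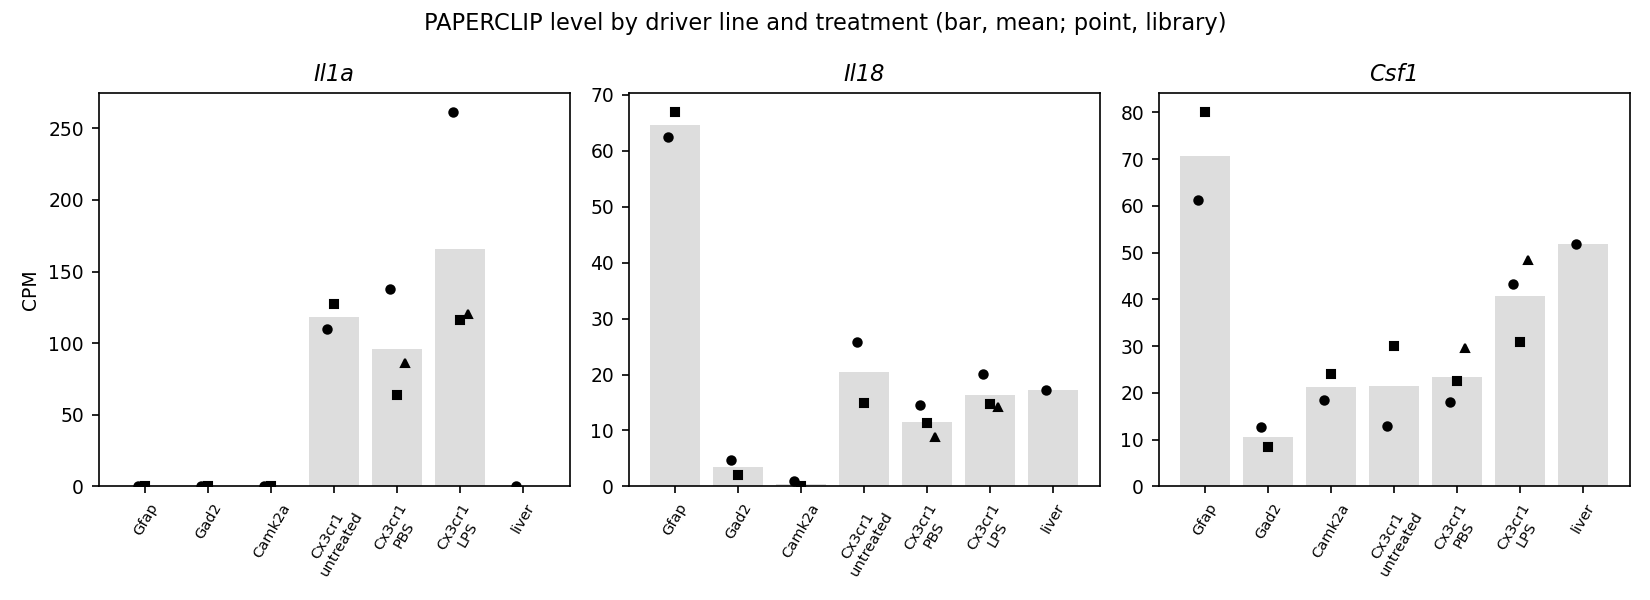
PAPERCLIP level (CPM) of Il1a, Il18 and Csf1 by Cre line and treatment, with liver. Bars are group means and points libraries (symbol, replicate number), with 2 libraries per cortical and untreated group, 3 per PBS or LPS group and 1 of liver; Il1a has 1 count in the 6 cortical libraries, in Camk2a, while Il18 and Csf1 are highest in Gfap at 64.6 and 70.6 CPM.

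Tnf, Il1rn, Il6, Il10 and Il12b had no count in the 6 cortical libraries, and Il1b had 2 counts, both in Camk2a. Over each cortical group a count of 0 allows 0.781 to 1.90 CPM. In PBS against untreated PAPERCLIP, 5 of the 9 genes passed the filter and 0 were called by edgeR or by DESeq2 (0 at an unadjusted p under 0.05), against 2.01% of 5112 genes called, 0.548% higher and 1.47% lower. Of these, Il1b, Il1rn, Tnf and Csf1 passed only through the LPS libraries kept for the spread. Il1b had no count in either group, so its outcome was fixed, and Il1rn had 2 counts after PBS and none untreated. The absence of calls therefore says little about an effect of PBS. Il1a was at 95.8 ± 37.9 CPM after PBS and 119 ± 12.5 CPM untreated (difference -0.37, SE 0.47, adjusted p = 0.697). Csf1 was at 23.4 ± 5.79 and 21.4 ± 12.1 CPM (0.12, SE 0.64, adjusted p = 0.942). Tnf had 7 counts over the 3 PBS libraries and none over the 2 untreated ones, where 0 allows up to 10.4 CPM, so no difference was detectable at this depth.

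Genes whose levels were most like Il1b differed between the assays. Over the 8 Cx3cr1-Cre PAPERCLIP libraries the 5 highest Pearson correlations of log2(CPM + 1), among 9382 genes, were those of Tmem107 (0.9999), Rad54l (0.997), Spdl1, Rmi2 and Mcm10 (0.993). These are low genes with counts in the same LPS libraries, and the 8 libraries differ in depth along with treatment. Over the 6 libraries of isolated microglia, among 9632 genes, they were Oasl2 (0.996), Fgl2, Acap1, Anp32b and N4bp1 (0.993). Among the cytokines, the correlation with Il1b in PAPERCLIP was 0.94 for Il1rn, 0.83 for Tnf, 0.77 for Csf1 and 0.67 for Il6. In isolated microglia it was 0.94 for Il1rn, 0.96 for Csf1, 0.92 for Il10, 0.71 for Tnf and -0.92 for Il6. Both sets of values are descriptions over libraries that differ in treatment, and carry no test.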

How the data were processed

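Each library has a deposited table of whole-number counts per gene, made by the authors and used here without change. Per the submitters' processing notes, PAPERCLIP reads were handled with cutadapt and Novoalign and RNA-seq reads with STAR, on mm10, with no versions named. Per the labels' protocols, PAPERCLIP linkers carry a 7-base random barcode; collapsing of duplicates and use of strand are not stated, so overlapping genes are uncertain.

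The 9 members and the 4 gene lists were chosen with earlier results of these data known. The rule named all 9 genes, for each list 3 genes of smallest p in the direction with more calls and 1 in the opposite direction, the first 2 markers of each cell type list, and the 5 genes most like Il1b. Genes were kept by filterByExpr, libraries scaled by TMM and quasi-likelihood models fitted in edgeR 4.0.16 (R 4.3.3). Genes were called at a Benjamini-Hochberg adjusted p of 0.05, taken across every gene in the fit; adjusted p-values come from it unless another tool is named. Both LPS comparisons used their own 6 libraries, PBS against untreated kept LPS libraries for the spread, and the assays were joined over 23105 shared symbols. Pooled ratios are ratios of CPM with exact conditional 95% intervals (scipy 1.17.1), and these, like limits from 3 counts, cover counting error only. Labels do not say that libraries came from separate animals, so the spread behind each p-value is that of these libraries and may be technical. Each fit was tested on simulated data.

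Same-numbered PBS and LPS libraries deviated together, with correlations of 0.129, 0.237 and 0.185 in PAPERCLIP and 0.113, 0.100 and 0.193 in RNA-seq. In RNA-seq, PBS replicate 1 also correlated with LPS replicate 2 (0.104), so replicates 1 and 2 are not told apart there. As every same-numbered pair was over 0.1, the replicate number was used as a block in an alternative, from the data alone. The main fits had no block, because the labels do not say that the numbers pair libraries. Alternatives were RLE size factors, library totals, DESeq2 1.42.0, no filter, 5 CPM, the replicate block, a term for the name prefix or letter, leaving out libraries, and, chosen after seeing the data, a filter at 5 counts.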

Additional observations from a re-analysis of the deposited data

Results flagged for a closer look

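Il6 fell in isolated microglia, where it passed the filter only through its PBS libraries. In PAPERCLIP every LPS library lay above every PBS library, but the difference did not pass (pooled ratio 2.66, interval 0.939 to 10.4). Of all genes tested in PAPERCLIP, which do not include Il6, 11.7% separated with LPS higher. The difference in LPS response, RNA-seq minus PAPERCLIP, was -3.71 on the log2 scale and was not called (adjusted p = 0.122, edgeR). Libraries outside the comparisons also held cytokine counts. RNA-seq of Ptbp2-knockout cortex at E18.5 held 16 counts of Il1rn, 327 of Il18 and 699 of Csf1 over 3 libraries, or 0.216, 4.42 and 9.45 CPM. The single liver PAPERCLIP library held 6 counts of Csf1 (51.8 CPM, 95% counting interval 19.0 to 113).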

How the results depend on the processing

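Depth limits most members in PAPERCLIP, where 6 of 9 fell below the filter. Il1b, Il1rn, Il6 and Csf1 kept their calls and directions in isolated microglia in all alternatives. Of these, Il1rn and Il6 passed the planned filter only through the group in which each was higher. Counts of genes called changed more. With no filter, LPS against PBS in PAPERCLIP gave 632 genes against 201, the difference between assays 115 against 1, and PBS against untreated 313 against 103. DESeq2 gave 1781 genes against 2706 in isolated microglia, 87 for the difference between assays and 234 for PBS against untreated. The name prefix as a term gave 317 in PAPERCLIP. Leaving out 1 library gave 74 to 167 in PAPERCLIP LPS against PBS (the lowest without PBS replicate 1), 1 to 37 for the difference between assays (the highest without LPS replicate 3 of PAPERCLIP), and 3 to 495 for PBS against untreated (3 without PBS replicate 1, 495 without untreated replicate 1, and fewer than 103 in the other 6 omissions). Under the filter, Il1rn in PAPERCLIP gave no value without LPS replicate 1 or 2.

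With the replicate block, which treats same-numbered libraries as pairs, 423 genes were called in PAPERCLIP LPS against PBS, 61.0% of them higher against 77.6% without it, and 57 in the difference between assays. Among the 9 genes the block changed the call of Il1a in PAPERCLIP only. The Il6 to Il1b shift in isolated microglia had p = 0.25 in an exact test with signs permuted within replicate numbers, the smallest value that test allows. Csf1 changed sign in 7 fits of comparisons in which it was not called. In the difference between assays it was -0.18 without PBS replicate 3 of PAPERCLIP, -0.08 without LPS replicate 2 of PAPERCLIP and -0.0105 without LPS replicate 2 of RNA-seq, in a range of -0.18 to 0.37 over omissions of 1 library. In PBS against untreated it was -0.044 with the replicate block, -0.26 without untreated replicate 1 and -0.11 without PBS replicate 3 (range -0.26 to 0.75), and against the cortical mean 0.077 without untreated replicate 1 (range -0.83 to 0.077). Library totals moved the median of all genes from -0.02 to -0.13 in isolated microglia. In PBS against untreated they moved it from 0.03 to 0.11, with 37.8% of calls higher against 27.2%. The cause of these changes was not tested.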

Other observations

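Genes that receive and process these cytokines were mostly higher in untreated Cx3cr1-Cre cells than in the mean of the 3 cortical groups in PAPERCLIP. Of 8 receptors tested, 6 were higher and 0 lower, among them the Csf1 receptor Csf1r (10.44 on the log2 scale, SE 0.32, adjusted p = 9.62e-15, edgeR) and the Tnf receptors Tnfrsf1a (6.83) and Tnfrsf1b (8.75). All 6 processing genes tested were higher, among them Casp1 (7.69), Nlrp3 (8.85) and Pycard (9.19), which form an inflammasome that yields active interleukin 1 beta. Of 8 regulators, Zfp36 (4.17), Tnfaip3 (4.16) and Nfkbia (1.41) were higher and Dusp1 was lower (-4.57). Of 3 other ligands, Il16 was higher (8.59) and Il33 lower (-7.80). List medians were 7.68, 8.89, -0.09 and -5.71, against -0.48 over all genes, 21.8% of which were called higher. Brain against cortex goes with Cre line here, and they cannot be told apart. A gene could also pass the filter through a single group in which it is high, which fixes its direction. These counts are therefore descriptions, and no test is read from them. These genes are named after their values were seen.

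Other marker lists summed as follows in PBS and then LPS libraries. In PAPERCLIP, endothelial markers were at 14.5 to 26.6 and 10.6 to 12.5 CPM, astrocyte markers at 176 to 299 and 157 to 246 CPM, neuronal markers at 447 to 2617 and 356 to 497 CPM, and hepatocyte markers at 10.9 to 1699 and 16.5 to 35.3 CPM. In isolated microglia they were at 392 to 932 and 210 to 473 CPM (endothelial), 192 to 242 and 110 to 210 CPM (astrocyte), 8.91 to 11.99 and 3.91 to 9.60 CPM (neuronal), and 1749 to 7686 and 1440 to 1849 CPM (hepatocyte). That last sum was almost all Ttr, with 27544 counts after PBS and 8334 after LPS, while Alb had 2 and 3, Apoa2 had 3 and 6, and Serpina1a and Fgb had 0. Their part in the cytokine differences was not tested.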
